A study of Mus musculus with 24 samples.

Results

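The zinc finger homeobox genes Zfhx2, Zfhx3 and Zfhx4 are 3 of the 47069 genes counted in the hippocampus of mice without the histone demethylase Kdm5c. They were taken by name from the annotation, and they were selected on the measured CPM of the genotype groups: Zfhx2 had been seen to be lower in both mutants, its relatives had not. The differences between mutants and their references are therefore described here with their standard errors and without a test. The antisense gene of Zfhx2, Zfhx2os, the genes beside each member, and the response to novelty were not used in that choice and were tested. The difference of that response between genotypes is built from the genotype differences, so for the members it is described without a test.

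Messenger RNA was sequenced in 18 libraries from hippocampal tissue of males at 2 to 4 months of age, 3 libraries in each of 6 groups, and every library pooled tissue of 3 mice. The constitutive mutants (KO) were Kdm5c-/y according to the description of the line and Kdm5c -/- in the sample labels. They came untreated or after 1 h alone in a white box with tubing and toys (novelty), as did their wild types (WT), and the null line was kept on a mixed C57 and 129 F1 background. The inducible forebrain mutants (ifKO) came from mice with a floxed Kdm5c allele (Kdm5cf/f) and CaMKIIα-creERT2, a tamoxifen-dependent Cre recombinase driven by a promoter of excitatory forebrain neurons, on a C57BL/6J background. They and their controls were untreated, and the labels do not say whether control animals had Cre or were given tamoxifen. Cells without an active CaMKIIα promoter keep the gene in ifKO mice. The inducible line was read as paired ends on another flowcell than the single reads of the constitutive line, so that background, read type and flowcell cannot be told apart between the lines. The extraction text speaks of hippocampal cultures, the other labels of tissue.

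ZFHX proteins are very large transcription factors that combine several homeodomains, which bind DNA, with many C2H2 zinc fingers. In mice, Zfhx3 (also called Atbf1) is known for its part in the circadian rhythm of the suprachiasmatic nucleus, Zfhx2 for roles in behaviour and pain, and Zfhx4 as a gene of the developing brain and other tissues. Zfhx2os is a noncoding RNA transcribed from the strand opposite Zfhx2. Kdm5c removes methyl groups from lysine 4 of histone H3, a mark of active promoters.

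Zfhx2 (ENSMUSG00000040721) lies on the minus strand of chromosome 14 from 55060262 to 55092324 (GRCm38). Zfhx2os (ENSMUSG00000093452) lies on the plus strand from 55053869 to 55075873. Of the 4453 exonic bases of Zfhx2os, 3255 (73.1%) were opposite exons of Zfhx2, which made up 17.9% of the 18166 exonic bases of Zfhx2. The overlap took in 2482 of the 7686 coding bases (32.3%) of a protein-coding transcript of Zfhx2, its start codon included. The first 90 coding bases of Zfhx2, at chr14:55075146-55075235 on the minus strand, and the same interval as an exon of Zfhx2os carries it on the plus strand are shown, because they are where an antisense transcript covers the start of the protein. Capitals mark the start codon in Zfhx2 and the bases opposite it in Zfhx2os, both read from the GENCODE M21 transcripts.
Zfhx2: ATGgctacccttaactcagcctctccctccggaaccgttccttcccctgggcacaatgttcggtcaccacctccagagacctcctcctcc
Zfhx2os: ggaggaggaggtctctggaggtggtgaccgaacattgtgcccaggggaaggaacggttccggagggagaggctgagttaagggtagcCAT

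**Figure D1:**
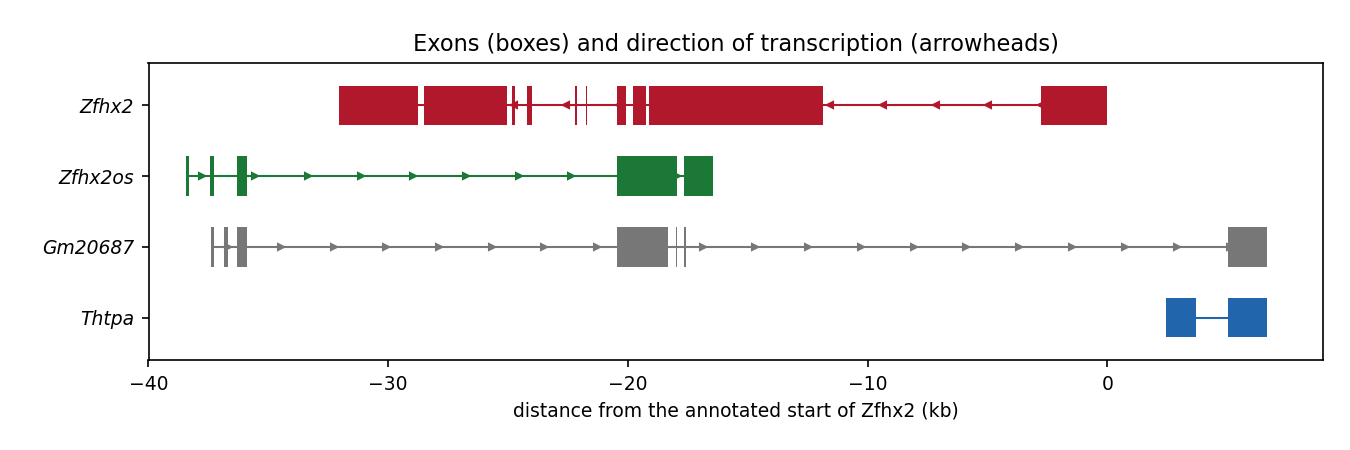
Exons of Zfhx2, Zfhx2os, Gm20687 and Thtpa (boxes) by distance in kb from the annotated start of Zfhx2, with arrowheads for the direction of transcription. The 3' exons of Zfhx2os overlap the large exon of Zfhx2 that holds its start codon, and Thtpa starts 2459 bases beyond the start of Zfhx2.

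Zfhx3 (ENSMUSG00000038872) lies on the plus strand of chromosome 8 from 107942644 to 108961630, and Zfhx4 (ENSMUSG00000025255) on the plus strand of chromosome 3 from 5218526 to 5415857. No exonic base of either was opposite, or shared with, an exon of another gene. Per length of exon, Zfhx2 was the highest and Zfhx3 the lowest of the 3 genes in 18 of 18 libraries. Zfhx2 ranged over the libraries from 4.46 to 8.39 CPM per kb (counts per M counts in genes, scaled between libraries, per kb of exon). Zfhx4 ranged from 0.820 to 1.83 CPM per kb and Zfhx3 from 0.209 to 0.367 CPM per kb. The ranges of the 3 genes did not overlap.

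Counts assigned to genes ranged from 16 to 45.6 M per library. Kdm5c itself was read at a mean of 75.0 CPM in untreated KO and 74.5 CPM in untreated WT, at 80.0 CPM in KO and 94.4 CPM in WT after novelty, and at 67.2 CPM in ifKO and 65.4 CPM in controls. None of these differences between mutant and reference passed the edgeR test (adjusted p = 0.983, 0.108 and 0.927), and a count over the whole gene checks neither deletion. With novelty Kdm5c was called higher in WT (log2 fold change 0.34 ± 0.06, adjusted p = 0.0388), where 0.348% of all tested genes were called higher. In KO its change with novelty was 0.09 ± 0.06 (adjusted p = 0.866). The WT call of Kdm5c was not followed through the alternative fits. Markers of hippocampal cells were read in every library, with CA1 and pyramidal genes summing to 689 to 852 CPM and dentate granule genes to 261 to 385 CPM. Choroid plexus genes summed to 603 CPM in untreated KO library 2 and to 396 CPM in control library 1, against 32.5 to 77.0 CPM in the others. WT novelty library 1 and KO novelty library 2 had stood apart in an earlier look at these data, and calls of Zfhx genes that change without them are given beside the result. The p-values measure the spread between pools, not between mice, and nothing in the labels shows whether pools shared a preparation.

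Zfhx2 was lower in all 3 comparisons of a Kdm5c mutant with its reference. Its level was 90.1, 87.8 and 91.7 CPM in untreated KO libraries, against 120.4, 122.1 and 121.9 CPM in untreated WT libraries. After novelty it was 96.7, 90.02 and 110.1 CPM in KO, against 152.5, 140.9 and 145.5 CPM in WT. In the inducible line it was 90.6, 81.1 and 83.8 CPM in ifKO, against 106.1, 107.5 and 106.5 CPM in controls. Every mutant library was below every library of its reference in each comparison. The log2 fold change was -0.43 ± 0.07 (SE of the fit, n = 3 libraries per group), or 0.740 times the WT level, in untreated KO. It was -0.56 ± 0.07 (0.677 times) in novelty-exposed KO and -0.32 ± 0.04 (0.801 times) in ifKO. Among all tested genes, 9.36% had groups that did not overlap in the lower direction in untreated KO, 4.66% after novelty and 5.83% in ifKO. Since bulk tissue was read, fewer cells that express a gene and less of its RNA per cell cannot be told apart here or in any other result.

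Ordered by the group means, Zfhx2 was lowest in ifKO (85.2 ± 4.9 CPM, SD), then in untreated KO (89.9 ± 2.0), KO after novelty (98.9 ± 10.2), controls (106.7 ± 0.76), untreated WT (121.5 ± 0.92) and WT after novelty (146.3 ± 5.8). The libraries of the first 4 groups overlapped from each neighbour to the next, whereas controls, untreated WT and WT after novelty were separate. The difference between the KO effect and the ifKO effect in untreated mice was -0.11 ± 0.09 on the log2 scale, across lines that also differ in background, read type and flowcell.

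Zfhx3, the member tied to circadian rhythm, had group means of 4.94 to 6.44 CPM. It had 5.69, 5.30 and 5.58 CPM in untreated KO and 5.67, 7.70 and 5.48 CPM in untreated WT. After novelty it had 5.39, 4.37 and 5.06 CPM in KO and 4.50, 7.22 and 4.46 CPM in WT. The ifKO libraries had 6.32, 6.38 and 6.63 CPM and the controls 6.72, 6.01 and 5.45 CPM. The groups overlapped in each comparison, and library 2 was the highest WT library both at rest and after novelty. The log2 fold changes were -0.19 ± 0.19 in untreated KO, -0.13 ± 0.19 in novelty-exposed KO and 0.09 ± 0.10 in ifKO. With libraries left out one at a time, the value after novelty ranged from -0.26 to 0.14.

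Zfhx4, the developmental member, had 22.5, 19.3 and 16.9 CPM in untreated KO and 15.5, 13.5 and 18.01 CPM in untreated WT. After novelty it had 12.9, 23.6 and 13.4 CPM in KO and 13.2, 25.2 and 16.2 CPM in WT. In ifKO it had 24.1, 27.7 and 24.1 CPM, and in controls 28.9, 21.8 and 25.7 CPM. The groups overlapped in each comparison, with 1 high library in either novelty group. The log2 fold changes were 0.32 ± 0.25 in untreated KO, -0.15 ± 0.25 in novelty-exposed KO and -0.01 ± 0.09 in ifKO. Without WT novelty library 1 and KO novelty library 2, the value after novelty was -0.67 ± 0.19. That fit dropped the lowest WT and the highest KO novelty library of Zfhx4 and kept the high WT novelty library 2 (25.2 CPM). With libraries left out one at a time the value ranged from -0.47 to 0.16. In untreated KO against WT the SE was 0.19 for Zfhx3 and 0.25 for Zfhx4, against 0.07 for Zfhx2, so that a difference of the size seen for Zfhx2 was measured less precisely in its relatives.

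**Figure D2:**
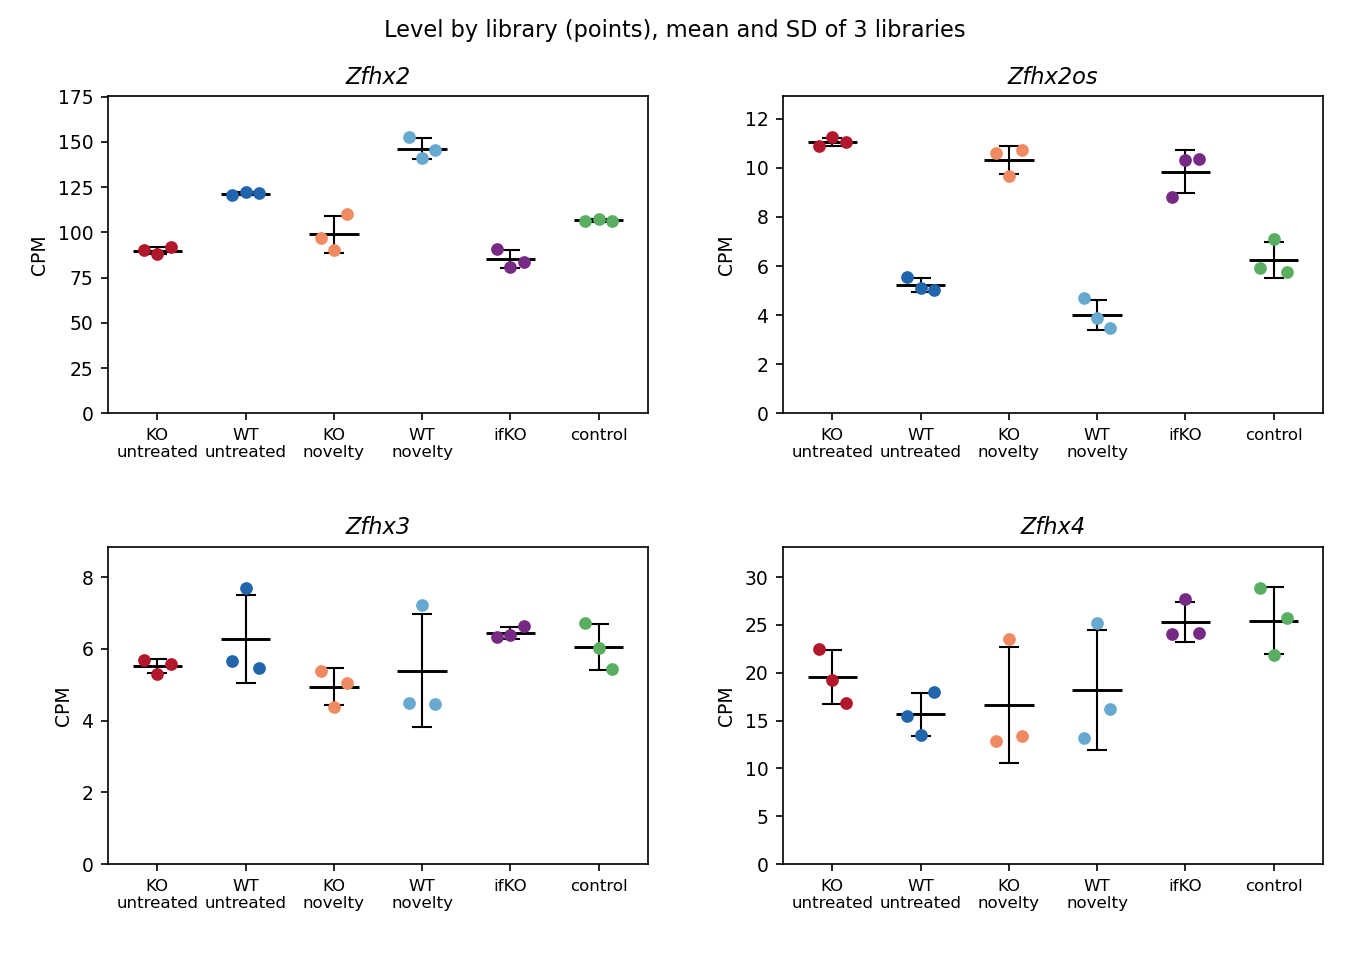
Level in CPM of Zfhx2, Zfhx2os, Zfhx3 and Zfhx4 in each of the 18 libraries (points) by group, with the mean and SD of 3 libraries (black). Zfhx2 is lower and Zfhx2os higher in every mutant group than in its reference with no overlap, while the groups overlap for Zfhx3 and Zfhx4.

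Within a library, the ratio of Zfhx2 to Zfhx4 counts needs no scaling between libraries. Its log2 value was 2.00, 2.19 and 2.44 in untreated KO, against 2.96, 3.18 and 2.76 in untreated WT, without overlap. It was 2.905, 1.93 and 3.04 in novelty-exposed KO and 3.53, 2.48 and 3.17 in WT after novelty, with overlap. In ifKO it was 1.91, 1.55 and 1.80, against 1.88, 2.30 and 2.05 in controls, and the highest ifKO library was above the lowest control library. The log2 ratio of Zfhx2 to Zfhx3 averaged 4.02 ± 0.03 in untreated KO and 4.29 ± 0.26 in untreated WT (SD), with overlap. After novelty it was 4.17, 4.36 and 4.44 in KO and 5.08, 4.29 and 5.03 in WT, with overlap. It averaged 3.72 ± 0.10 in ifKO and 4.14 ± 0.15 in controls, without overlap. The members were chosen on the fall of Zfhx2 against its relatives, so these ratios are a description only. No share over all gene pairs was computed beside them. In untreated KO the ratio to Zfhx4 holds the log2 fold change of Zfhx4 (0.32 ± 0.25) as well as that of Zfhx2 (-0.43 ± 0.07).

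The antisense gene Zfhx2os rose in all 3 genotype comparisons, opposite to Zfhx2. It had 10.9, 11.2 and 11.03 CPM in untreated KO, against 5.55, 5.10 and 5.02 CPM in untreated WT. After novelty it had 10.6, 9.66 and 10.7 CPM in KO, against 4.68, 3.90 and 3.47 CPM in WT. In ifKO it had 8.82, 10.3 and 10.4 CPM, against 5.90, 7.08 and 5.78 CPM in controls. All mutant libraries were above all libraries of their reference. The same held for 11.7% of all tested genes in untreated KO, 6.59% after novelty and 6.12% in ifKO. On the log2 scale the rise of Zfhx2os was 1.08 ± 0.11 in untreated KO (adjusted p = 8.7e-05 in edgeR's quasi-likelihood test, with p-values adjusted by Benjamini-Hochberg across all genes tested, as for every adjusted p that follows). It was 1.36 ± 0.11 in KO after novelty (adjusted p = 1.4e-05) and 0.66 ± 0.11 in ifKO (adjusted p = 0.0127). Of all tested genes, 1.09% were called higher and 0.159% lower in untreated KO, 1.2% higher and 0.14% lower in KO after novelty, and 0.616% higher and 0.0288% lower in ifKO. Without WT novelty library 1 and KO novelty library 2 the called genes numbered 415 (323 higher, 92 lower), against 204, in untreated KO and 705 (406 higher, 299 lower), against 219, after novelty, and Zfhx2os was past the threshold in both. In ifKO the call was lost when control library 3 was left out (0.60, adjusted p = 0.144) and when ifKO library 2 was left out (0.62, adjusted p = 0.0667).

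The rise of Zfhx2os was 0.43 ± 0.15 larger on the log2 scale in KO than in ifKO among untreated mice, which did not pass the test of that difference (adjusted p = 0.894). By size of log2 fold change, Zfhx2os was number 86 of the 178 genes that rose in untreated KO, 63 of 196 after novelty and 59 of 107 in ifKO.

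Counts of Zfhx2os were 12.3 ± 0.43% of those of Zfhx2 in untreated KO and 4.30 ± 0.27% in untreated WT (SD, n = 3 libraries each). They were 10.5 ± 0.65% in novelty-exposed KO and 2.74 ± 0.34% in WT after novelty. In ifKO they were 11.6 ± 1.6%, and in controls 5.86 ± 0.63%. Across the 12 libraries of the constitutive line the log2 levels of both genes had r = -0.93, and across the 6 of the inducible line r = -0.95. These r describe libraries whose groups already differ in both genes. Zfhx2 had r = 0.08 with Zfhx3 and r = -0.26 with Zfhx4 over the same 12 libraries.

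**Figure D3:**
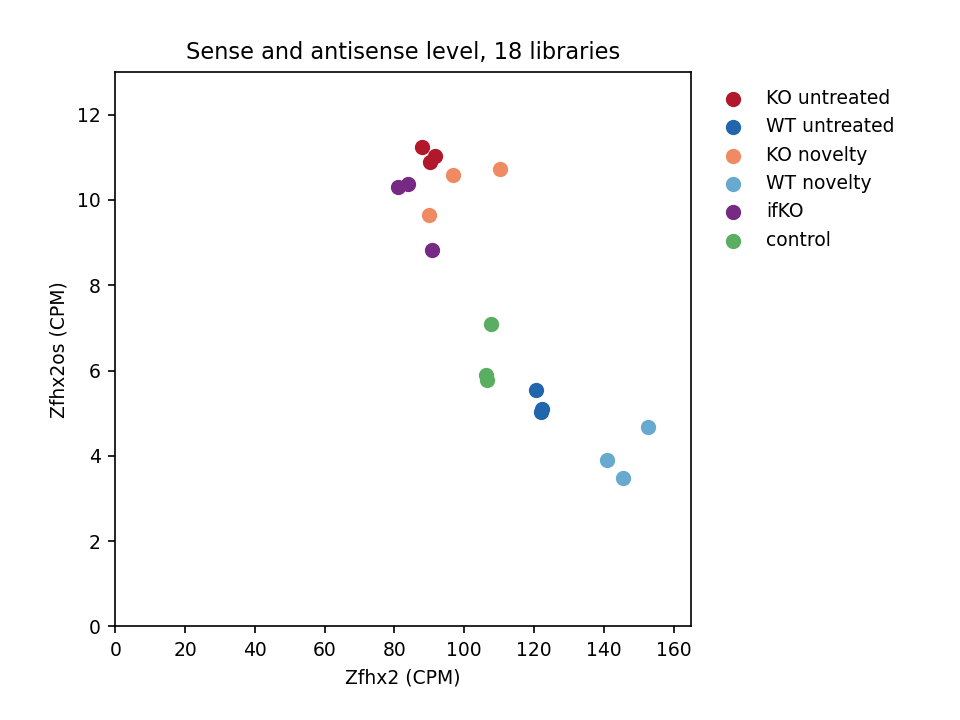
Zfhx2 (horizontal axis, CPM) against Zfhx2os (vertical axis, CPM) in 18 libraries, coloured by group. Libraries of KO and ifKO lie at 81.1 to 110.1 CPM of Zfhx2 and 8.82 to 11.2 CPM of Zfhx2os, and those of WT and control at 106.1 to 152.5 and 3.47 to 7.08 CPM.

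How far both genes can be separated depends on the counting. The libraries were stranded per the labels, but the read counter's strand setting is not stated in the sources. Without strand, reads of Zfhx2 and Zfhx2os in their shared bases could not be told apart. Of 214 genes whose exons lie wholly opposite exons of genes with at least 1000 counts, 59 (27.6%) had at least 10 counts. Of 396 genes wholly inside exons of such genes on their own strand, 34 (8.59%) had as many. A second antisense gene of the locus, Gm20687, shares 63.0% of the exonic bases of Zfhx2os on the same strand and had 0 counts in all 18 libraries. All but 131 of its 4545 exonic bases lie in exons of Zfhx2os or Thtpa. Few reads could thus be assigned to Gm20687 alone, and the 0 counts do not show whether it is transcribed. Only 214 exonic bases of Zfhx2os lie in exons of neither Zfhx2 nor Gm20687, the bases left to it alone if strand was not used. With strand, only the bases shared with Gm20687 would stay uncertain. The counts of Zfhx2os are thus uncertain by sharing, and its level per kb is not compared with that of Zfhx2.

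Genes beside the members gave 1 further call. Thtpa, which encodes thiamine triphosphatase, starts 2459 bases beyond the annotated start of Zfhx2 and is transcribed away from it. It had 34.6, 36.0 and 35.8 CPM in KO after novelty, against 31.1, 27.7 and 25.8 CPM in WT after novelty, without overlap. Of all tested genes, 6.59% were higher without overlap in that comparison. Thtpa rose by 0.33 ± 0.07 there (adjusted p = 0.0333). It had 38.1, 37.8 and 39.2 CPM in untreated KO and 34.6, 35.0 and 34.4 CPM in untreated WT (0.15 ± 0.07, adjusted p = 0.595), and in ifKO the log2 fold change was 0.11 ± 0.05 (adjusted p = 0.776). The call after novelty was lost in 11 of 12 fits with a library left out, all but that without WT novelty library 1 (adjusted p 0.00448 to 0.297 over all alternatives). It was also lost without the filter on low counts (0.0850) and with only the groups compared (0.297). Gm20687 shares 56.8% of the exonic bases of Thtpa.

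The other coding neighbours of Zfhx2 did not pass the test in any comparison. Ngdn, a nucleolar protein gene, averaged 16.5 CPM in untreated KO and 17.4 CPM in untreated WT (-0.08 ± 0.11). Myh7, a cardiac myosin heavy chain, averaged 10.4 CPM in ifKO and 8.58 CPM in controls (0.28 ± 0.14, adjusted p = 0.791). Ap1g2, an adaptor complex subunit of vesicle transport, averaged 14.1 CPM in untreated KO and 13.8 CPM in untreated WT (0.02 ± 0.15). In ifKO it averaged 11.8 CPM, against 13.7 CPM in controls, without overlap (-0.21 ± 0.07, adjusted p = 0.496). Of all tested genes, 5.83% were lower without overlap in ifKO. Beside Zfhx3 lie the proteasome subunit Psmd7 and the ubiquitin ligase Wwp2 on one side and the helicase Dhx38 on the other, and beside Zfhx4 the peroxisome biogenesis gene Pex2. None of these genes, nor the antisense 2700069I18Rik at the start of Zfhx4, was past the threshold in a genotype or novelty comparison. Pmfbp1 had 152 counts over the 18 libraries and passed the filter in the inducible line only, and Hnf4g, Gm8797, Gm20687 and 4 transcripts inside Zfhx3 did not pass it.

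**Figure D4:**
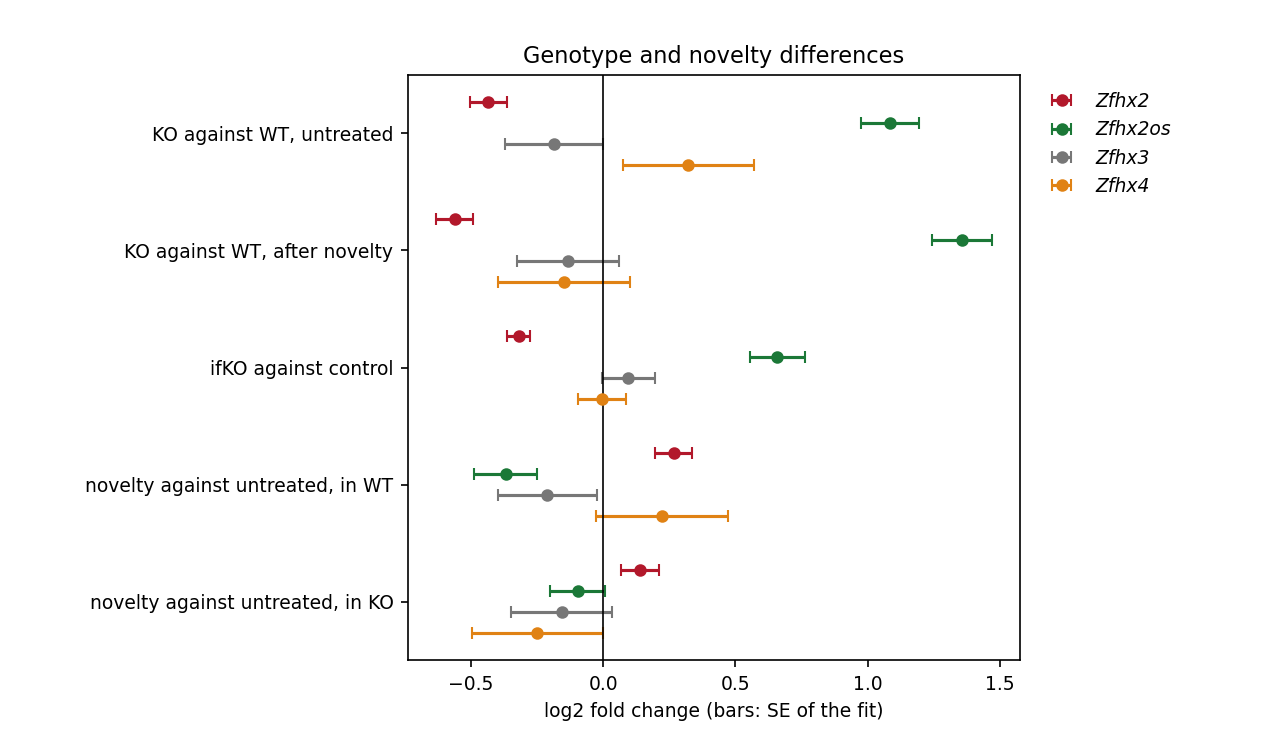
Log2 fold change (horizontal axis) of Zfhx2, Zfhx2os, Zfhx3 and Zfhx4 in each comparison (rows), with the SE of the fit as bars. Zfhx2 lies at -0.56 to -0.32 and Zfhx2os at 0.66 to 1.36 in the genotype comparisons, and both lie nearer 0 with novelty.

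The response to novelty within a genotype was not used to choose the members. In WT mice Zfhx2 stood at 152.5, 140.9 and 145.5 CPM after novelty, against 120.4, 122.1 and 121.9 CPM untreated, without overlap. Of all tested genes, 8.41% were higher without overlap in that comparison. The log2 difference of Zfhx2, 0.27 ± 0.07, did not pass the test (adjusted p = 0.143). It did with DESeq2 (0.26, adjusted p = 0.0439) and without WT novelty library 1 and KO novelty library 2 (0.24, adjusted p = 0.0455), and the adjusted p ranged from 0.0439 to 0.403 over all alternatives. In KO mice Zfhx2 had 96.7, 90.02 and 110.1 CPM after novelty and 90.1, 87.8 and 91.7 CPM untreated, with overlap (0.14 ± 0.07, adjusted p = 0.773). The novelty response of KO minus that of WT was -0.13 ± 0.10 for Zfhx2. This difference is also the KO effect after novelty minus the untreated KO effect. The members were chosen on those effects, so for them it is described without a test. No gene of 16392 passed for that difference with edgeR, while 563 had an unadjusted p under 0.05, and DESeq2 called 0 as well. Without WT novelty library 1 and KO novelty library 2 there were 331 calls (29 higher, 302 lower), and without the filter on low counts 8. The lowest adjusted p of that difference over all alternatives was 0.144 for Zfhx2os.

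Zfhx2os was lower after novelty in WT, with no overlap between 4.68, 3.90 and 3.47 CPM after novelty and 5.55, 5.10 and 5.02 CPM untreated. Of all tested genes, 7.53% were lower without overlap in that comparison. The log2 difference of Zfhx2os, -0.37 ± 0.12, did not pass the test (adjusted p = 0.238). Without WT novelty library 1 and KO novelty library 2 it was -0.49 (adjusted p = 0.0468). In KO the difference of Zfhx2os with novelty was -0.10 ± 0.10 (adjusted p = 0.945). There too the libraries did not overlap, at 10.6, 9.66 and 10.7 CPM after novelty and 10.9, 11.2 and 11.03 CPM untreated. Of all tested genes, 6.38% were lower without overlap in KO. Zfhx3 differed with novelty by -0.21 ± 0.19 in WT (adjusted p = 0.747) and -0.16 ± 0.19 in KO (adjusted p = 0.954). Zfhx4 differed by 0.22 ± 0.25 in WT (adjusted p = 0.814) and by -0.25 ± 0.25 in KO (adjusted p = 0.934). The value in WT turned to -0.10 without WT novelty library 2, the highest Zfhx4 library of the constitutive line. Novelty calls were made for 0.384% of genes in WT (63 genes, 0.348% higher and 0.0366% lower) and 0.11% in KO (18 genes, all higher), and none of the 3 members nor Zfhx2os was among them. The 63 calls in WT became 451 without both libraries named above and 4 to 102 with 1 library left out, and the 18 in KO became 63 and 1 to 27.

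The wider class of zinc finger homeobox genes holds Zeb1 and Zeb2, which repress epithelial genes, the Zhx genes, the Tshz genes, Adnp, Adnp2 and Homez. All 11 passed the filter on low counts, and 0 were past the threshold in untreated KO, where 1.24% of all tested genes were, in KO after novelty, where 1.34% were, or in ifKO, where 0.645% were. Their median log2 fold changes were 0.04, 0.03 and -0.02 in these 3 comparisons, against 0.00 for all tested genes in each. The gene with the lowest adjusted p among them was Tshz2, a teashirt family gene, at -0.63 ± 0.16 in untreated KO (adjusted p = 0.0997), and 67.5% of its exonic bases lie opposite another gene. It was at 0.23 ± 0.16 in KO after novelty and -0.05 ± 0.08 in ifKO. In untreated WT its libraries ran from 49.3 to 80.8 CPM, with a median of 51.7 CPM. With novelty, 1 of the 11 was called in WT, where 0.384% of all tested genes were, and 0 in KO, where 0.11% were: Zhx3, a zinc finger and homeobox repressor, rose to a mean of 131.7 CPM after novelty, against 104.0 CPM untreated (0.34 ± 0.06, adjusted p = 0.0251). That call was lost in 6 of the 12 fits with a library left out (without KO untreated library 1 or 3, WT novelty library 3 or any WT untreated library, adjusted p 0.0519 to 0.148), with GC and length offsets (0.0597) and with only the groups compared (0.174).

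Per kb of exon the class spanned a wide range. Zhx1 averaged 15.3 CPM per kb in untreated KO and 14.2 CPM per kb in untreated WT, Zeb2 14.2 and 12.6, and Zeb1 8.78 and 9.05. Zfhx2, at 4.95 and 6.69 CPM per kb in those groups, lay among the middle genes of the class, and Zfhx4 and Zfhx3 lay below all of them but Adnp. Adnp had 301 counts over the 18 libraries, and 82.1% of its exonic bases are shared with another gene on its strand, so its level is uncertain.

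Other homeobox genes gave no call. Of 41 homeobox genes of forebrain and general use, such as Cux2, Lhx2, Meis2 and Prox1, 38 were tested and 0 were past the threshold in any genotype or novelty comparison, and their median log2 fold change was -0.003 in untreated KO, 0.02 after novelty and 0.02 in ifKO. Of 7 neuropeptide genes and receptors of the suprachiasmatic nucleus, where Zfhx3 has its known role, 4 were tested and 0 were called. Of 8 partners and targets reported for Zfhx3, 6 were tested and 0 were called by genotype. With 1.24%, 1.34% and 0.645% of all tested genes called in untreated KO, KO after novelty and ifKO, 0 calls among 4 to 38 genes is near the background and no result about these lists. Among them Cdkn1a, a cyclin-dependent kinase inhibitor, rose with novelty in both genotypes, where 0.384% of all tested genes were called in WT and 0.11% in KO. It averaged 12.4 CPM after novelty in KO, against 7.04 CPM untreated (0.82 ± 0.11, adjusted p = 0.0123), and 9.62 CPM after novelty in WT, against 5.87 CPM untreated (0.71 ± 0.11, adjusted p = 0.0193). In each genotype that call was lost in 4 of 12 fits with a library left out: in KO without KO novelty library 1 or any KO untreated library (adjusted p 0.0520 to 0.113), in WT without WT novelty library 3 or any WT untreated library (0.0679 to 0.127). It was also lost with only the groups compared (adjusted p = 0.0618 in KO and 0.0807 in WT).

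Genes whose log2 level most resembled that of each gene were ranked by the smaller of their r over 12 constitutive and 6 inducible libraries, among genes of at least 1 CPM. For Zfhx2 they were Pold2, a subunit of DNA polymerase delta (r = 0.91 and 0.95), Setd1b, a methyltransferase of lysine 4 of histone H3 (0.88 and 0.93), the actin-binding Dbnl (0.86 and 0.93), the calpain Capn5 (0.85 and 0.91) and Fam234b (0.89 and 0.85). Setd1b averaged 50.2 CPM in untreated KO and 56.9 CPM in untreated WT, and 43.0 CPM in ifKO and 48.2 CPM in controls. For Zfhx2os they were the axonemal dynein heavy chain Dnah1 (0.98 and 0.96), the skeletal muscle actin Acta1 (0.98 and 0.96), the phosphoglycerate mutase Pgam2 (0.95 and 0.96), the myosin Myh7b (0.95 and 0.97) and the tenascin Tnxb (0.97 and 0.95). Dnah1 averaged 73.3 CPM in untreated KO and 16.2 CPM in untreated WT, and 48.5 CPM in ifKO and 12.2 CPM in controls. Mutant and reference libraries both entered each r, so the directions of Setd1b and Dnah1 follow from the ranking. They are no separate result.

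For Zfhx3 the most alike genes were the lysozyme Lyz2 (r = 0.80 and 0.84), the collagen Col6a6 (0.87 and 0.77), Slfn2 (0.73 and 0.83), the spliceosomal Snrpc (0.72 and 0.73) and Ppp1r14a (0.70 and 0.95). For Zfhx4 they were the helicase Shprh (0.91 and 0.93), the sodium, potassium and calcium exchanger Slc24a2 (0.89 and 0.92), the synaptotagmin Syt14 (0.89 and 0.95), Strip2 (0.88 and 0.96) and Rasal2 (0.93 and 0.87). The libraries share their depth and composition, and these r describe 14549 to 14550 ranked genes. Ranked over the 12 constitutive libraries alone, 0 of the 5 genes named for Zfhx2, 0 for Zfhx3, 1 for Zfhx4 and 2 for Zfhx2os were again among the top 5, so the names depend on the ranking.

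Markers of other cells differed between some groups. Astrocyte genes (5 listed, all detected) summed to 1661 to 1699 CPM in untreated KO, against 1439 to 1524 CPM in untreated WT. After novelty they summed to 1559 to 1741 CPM in KO, against 1397 to 1503 CPM in WT. Oligodendrocyte lineage genes (6 listed, all detected) summed to 2754 to 3201 CPM in untreated KO, against 3578 to 3928 CPM in untreated WT. Their sums overlapped after novelty, at 2865 to 3250 CPM in KO and 3029 to 3510 CPM in WT. They also overlapped in the inducible line, at 3159 to 3475 CPM in ifKO and 3051 to 3822 CPM in controls. In the inducible line astrocyte sums were 1427 to 1450 CPM in ifKO and 1371 to 1468 CPM in controls, which overlap. Inhibitory neuron genes (8 listed, all detected) summed to 623 to 692 CPM in untreated KO, against 716 to 797 CPM in untreated WT, and to 772 to 796 CPM in ifKO, against 820 to 830 CPM in controls, but after novelty to 670 to 851 CPM in KO and 670 to 743 CPM in WT. CA1 and pyramidal genes summed to 690 to 699 CPM in ifKO, against 712 to 718 CPM in controls, and CA2 and CA3 genes to 864 to 870 CPM in ifKO, against 818 to 845 CPM in controls. Taken singly, 1 of 5 CA1 and pyramidal genes and 3 of 6 CA2 and CA3 genes were higher in ifKO. Of the astrocyte genes, 4 of 5 were higher in untreated KO and 4 of 5 in KO after novelty. Of the oligodendrocyte lineage genes, 1 of 6 was higher in untreated KO and 4 of 6 after novelty. Of the inhibitory neuron genes, 1 of 8 was higher in untreated KO, 5 of 8 after novelty and 3 of 8 in ifKO. Microglia genes summed to 239.7 to 256.9 CPM in untreated KO, against 224.3 to 239.5 CPM in untreated WT, with 3 of 5 genes higher. After novelty they summed to 191.0 to 240.9 CPM in KO and 225.8 to 233.1 CPM in WT, with overlap and 1 of 5 genes higher. Such sums weigh the most abundant genes most. Among all tested genes taken singly, 21.0% had groups without overlap in untreated KO, 11.3% after novelty and 11.9% in ifKO. The part of the marker differences in the levels of Zfhx2 and Zfhx2os was not tested.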

How the data were processed

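The authors deposited unnormalized counts for each Ensembl gene, made with STAR 2.5.0c, SAMtools 1.3, HTSeq 0.6.1 and DESeq2 on build GRCm38, per the submitters' processing notes. No source used here gives HTSeq's strand setting or the annotation release. The 24 sample records describe 18 libraries, because either read of a pair has a record in the inducible line. Of 47069 IDs, 46574 were given a symbol, position and exons from GENCODE M21. Summary lines were left out (reads in no feature 14.7 to 17.2%, ambiguous 0.765 to 1.06%).

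The counts were fitted with edgeR 4.0.16 in R 4.3.3: TMM factors, filterByExpr (minimum count 10, minimum total 15), glmQLFit and glmQLFTest, and Benjamini-Hochberg adjustment over all tested genes with a threshold of 0.05. The 4 constitutive groups were fitted together (16392 genes), the inducible line alone (17367 genes), and the difference between both mutants over all 18 libraries (17508 genes). The fitted prior count was 0.125. CPM use TMM factors over 18 libraries, and log2 CPM for r a prior count of 2. Exon lengths are unions over transcripts.

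The members, lists, rules and alternatives were chosen with earlier results of these data known. Named were the members, Zfhx2os, the coding genes nearest to each member (2 on either side), overlapping genes, list genes past the threshold, and the 5 genes most alike. Genes named outside this rule (Tshz2, and the levels of Zeb1, Zeb2 and Zhx1) were chosen after their values were seen. Alternatives were DESeq2 1.42.0, RLE factors, no or a stricter filter (1 CPM in 3 libraries), only the groups compared, the replicate number as a block, offsets for GC content and length, no TMM factors for levels, and libraries left out. The fit was tested on simulated counts. The number of libraries, 3 per group, limits the precision of every value.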

Additional observations from a re-analysis of the deposited data

How the results depend on the processing

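In untreated KO, KO after novelty and ifKO, Zfhx2 kept its direction under all alternatives, at -0.49 to -0.43, -0.57 to -0.47 and -0.37 to -0.32, and with libraries left out one at a time at -0.45 to -0.42, -0.66 to -0.50 and -0.36 to -0.29. The lowest untreated value, -0.49, came with offsets for GC content and length. Without TMM factors Zfhx2 averaged 125.3 CPM in untreated WT and 104.6 CPM in controls. Zfhx2os kept its calls in KO under all alternatives. In ifKO it ranged from 0.60 to 0.75 with libraries left out, below the threshold in 2 of 6 fits, named in the report. With novelty in WT, Zfhx2 passed with DESeq2 (0.26) and without both deviating novelty libraries (0.24), as did Zfhx2os without them (-0.49). Zfhx4 in KO after novelty was then -0.67, with its high WT novelty library 2 kept, against -0.47 to 0.16 with libraries left out one at a time. The novelty response of Zfhx3 in KO minus that in WT, 0.05 ± 0.27, ranged from -0.12 to 0.32 with libraries left out, negative without KO novelty library 1, WT novelty library 1 or 3, or WT untreated library 2. The response of Zfhx4 in WT ranged from -0.10 to 0.41, negative without WT novelty library 2. The cause was not tested.

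Counts of called genes moved more. In untreated KO the 204 became 332 with GC and length offsets, 347 without a filter, 318 with only the groups compared and 415 without both deviating libraries, and 121 to 249 with libraries left out. In KO after novelty the 219 became 351 with offsets, 104 with only the groups compared, 705 without both deviating libraries and 144 to 282 with libraries left out. In ifKO the 112 became 398 without a filter and 56 to 102 with libraries left out. With novelty in WT the 63 became 218 with DESeq2, 313 with offsets, 252 without a filter, 6 with only the groups compared, 33 with the replicate block, 451 without both deviating libraries and 4 to 102 with libraries left out. With novelty in KO the 18 became 68 with DESeq2, 58 with offsets, 101 without a filter, 10 with only the groups compared, 6 with the replicate block, 63 without both deviating libraries and 1 to 27 with libraries left out. For the difference between the novelty responses the 0 became 8 without a filter and 331 without both deviating libraries.

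No label says that equal replicate numbers mark paired pools, and in no comparison was every correlation over 0.1: the correlations of same-numbered deviations ran from 0.05 to 0.42 (KO with WT after novelty), -0.22 to -0.09 (untreated), -0.21 to 0.05 (ifKO), 0.08 to 0.24 (novelty in KO) and -0.32 to 0.01 (novelty in WT). In these comparisons 4, 0, 2, 5 and 0 of 6 libraries correlated best with their own number, a hint of pairing from the data in KO with WT after novelty and in novelty in KO. Beside the counts above, the replicate block ended the calls of Thtpa in KO after novelty (adjusted p = 0.0693) and of Zhx3 with novelty in WT (0.0571). Depth limits Zfhx3 most, with 3139 counts over 18 libraries against 56530 of Zfhx2.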

Other observations

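Of the genes most alike to Zfhx2 and Zfhx2os, 3 lie close together on chromosome 11 (GRCm38): Dbnl from 5788488 to 5800962 on the plus strand, Pgam2 from 5801640 to 5803733 on the minus strand and Pold2 from 5872180 to 5878292 on the minus strand. Dbnl and Pgam2 converge, with 677 bases between them. Dbnl was picked for its likeness to Zfhx2 and Pgam2 for its likeness to Zfhx2os, so the directions of their levels follow from the choice, and no test was made. Pgam2 averaged 17.3 CPM in untreated KO and 6.09 CPM in untreated WT, and 8.79 CPM in ifKO and 4.58 CPM in controls. Dbnl averaged 69.0 CPM in untreated KO and 76.9 CPM in untreated WT, and 59.2 CPM in ifKO and 62.0 CPM in controls. Their position was noted after their values were seen.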
